A study of Rattus norvegicus with 15 samples.

Results

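The 8 serotonin receptor genes Htr1a, Htr1b, Htr1d, Htr2a, Htr2c, Htr4, Htr6 and Htr7 were followed in the rat nucleus accumbens after cocaine self-administration. They were found by symbol among 14497 genes whose probe set had 1 symbol in the platform annotation, with no measured value in the rule. All 8 were found, each with 1 probe set (10812879 for Htr1a, 10918979 for Htr1b, 10873008 for Htr1d, 10781467 for Htr2a, 10937302 for Htr2c, 10802151 for Htr4, 10882383 for Htr6 and 10729825 for Htr7), and all 8 were among the 11778 genes that passed the filter on low signal. No receptor passed the test in any comparison between groups, and every difference lay within the spread between arrays. The levels of Htr1b, Htr1d, Htr2c and Htr6 varied from array to array together with marker genes of medium spiny neurons. Those of Htr2a rose and those of Htr4 fell as marker genes of cortical neurons rose. The relations of Htr2c and Htr2a were each weaker without 2 arrays, and a relation of Htr1a to the medium spiny neuron markers rested largely on 2 arrays.

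Serotonin reaches the nucleus accumbens from neurons of the raphe nuclei and acts there on a family of receptors, all of which couple to G proteins except the type 3 receptor, an ion channel. Type 1 receptors couple to Gi/o proteins and lower cyclic AMP, type 2 receptors couple to Gq and release calcium from internal stores, and types 4, 6 and 7 couple to Gs and raise cyclic AMP. In this region the receptors are known for tuning the release of dopamine and the output of medium spiny neurons, the principal cells of the striatum.

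Male Sprague-Dawley rats weighing 250 to 350 g pressed a lever for an infusion and a light cue, 6 hours a day over 10 days. There were 5 groups of 3 arrays, 15 in all. Rats of 4 groups had received cocaine at 0.75 mg/kg per infusion, and rats of the saline group (Sal) had worked for saline under otherwise equal conditions. The cocaine groups were taken after 1 day of withdrawal without further testing (1W), after 1 day and a cue test under extinction (1C), after 30 days without a test (30W), or after 30 days and the cue test (30C). How long the saline rats were kept, and whether they were tested, is not given in the labels. The labels also leave it unsaid if each array was made from a single rat or a pool, so p-values measure the spread between these arrays, which may be partly technical. All values are log2 intensities normalized by the authors with RMA. A difference of 1 is a doubling, and levels of different genes are not comparable, since their probes differ.

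The dopamine receptors of medium spiny neurons, which the tissue label calls for, were present, with Drd1 between 9.54 and 10.31 and Drd2 between 11.21 and 11.88 on the 15 arrays. Single markers of tissue outside the accumbens, Slc17a7 and Ttr, varied far more. Slc17a7, the vesicular glutamate transporter of cortical projection neurons, had its lowest value, 7.16, in Sal replicate 1 and its highest, 12.16, in 30C replicate 1. Ttr, which marks the choroid plexus, ranged from 5.55 to 10.20. For each marker list a score was taken as the mean over its tested genes of the deviation from that gene's mean over the 15 arrays. The score of 16 cortical projection neuron markers was lowest in Sal replicate 1 and highest, at 0.77, in 30C replicate 1, while that of 22 medium spiny neuron markers ran from -0.39 in 30C replicate 1 to 0.23 in 1W replicate 3. The score of 12 choroid plexus and ependymal markers ran from -0.19 in 1W replicate 3 to 0.38 in 1C replicate 1. That range was no wider than the range of the medium spiny neuron score. In bulk tissue, fewer cells of a type and less RNA per cell cannot be told apart.

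Among the 28 pairs of receptors, Htr1d and Htr6 moved together most closely over the arrays, as described below, and their upstream sequences are shown for that reason. Each is the 250 bases before the gene's start in RefSeq, assembly GRCr8, 5′ to 3′ on the gene's own strand, with the Htr1d window at chr5:153939485-153939734 on the plus strand and the Htr6 window at chr5:156595148-156595397 on the minus strand. Capitals mark matches to the E-box CANNTG, a motif that reads the same on both strands.
Htr1d: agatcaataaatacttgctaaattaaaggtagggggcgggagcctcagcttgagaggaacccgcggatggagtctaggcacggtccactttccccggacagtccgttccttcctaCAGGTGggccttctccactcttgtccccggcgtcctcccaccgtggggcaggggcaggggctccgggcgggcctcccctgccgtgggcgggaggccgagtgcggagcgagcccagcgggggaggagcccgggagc
Htr6: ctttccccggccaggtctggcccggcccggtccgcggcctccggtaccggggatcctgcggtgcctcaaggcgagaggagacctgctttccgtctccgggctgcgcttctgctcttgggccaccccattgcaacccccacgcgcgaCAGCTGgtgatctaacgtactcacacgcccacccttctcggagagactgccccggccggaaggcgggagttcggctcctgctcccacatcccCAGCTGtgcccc
The Htr1d window held 1 E-box, at position -135 from the start, and the Htr6 window held 2, at -104 and -12. The E-box is common, with a match in 65.5% of 33469 windows of the same length. GC boxes (GGGCGG on either strand) were found 3 times in the Htr1d window and 0 times in the Htr6 window, against 30.5% of all windows with at least 1. Both windows were rich in G and C, at 66.8% for Htr1d and 69.2% for Htr6, where the median window had 51.2%. Neither held the cyclic AMP response element half-site TGACG, which 18.2% of windows did. Windows were given for 5 of the 8 receptors, and these matches describe letters only.

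The Gi/o-coupled receptors come first. Htr1a encodes the autoreceptor of raphe neurons, which also serves as a postsynaptic receptor in cortex and limbic areas. Its level was 7.11, 7.28 and 7.30 in saline, 7.44, 6.76 and 6.95 in 1W, 7.17, 7.38 and 6.67 in 1C, 7.13, 6.65 and 6.98 in 30W, and 7.83, 6.79 and 7.14 in 30C. The 30C group held both the highest value of the 15 and 1 of the 4 lowest, and every group overlapped every other. The difference with the smallest p among the 8 comparisons of 2 groups was 30C over 30W, at 0.33 (SE 0.247, 95% interval -0.20 to 0.86, limma adjusted p = 0.999, n = 3 and 3). Without 30C replicate 1, which had the highest cortical score of all arrays, that difference was 0.048, and without 30C replicate 2 it was 0.56.

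Htr1b, the receptor on the terminals of many neurons where it lowers transmitter release, had levels of 11.07, 11.20 and 11.07 in saline and 10.86, 11.23 and 11.37 in 1W. In 1C it stood at 11.22, 11.13 and 11.22, in 30W at 11.20, 11.07 and 11.28, and in 30C at 10.96, 11.36 and 11.43. The 30C group held the highest and the third highest value of the 15, but also the second lowest. The group means ran from 11.11 ± 0.08 in saline to 11.25 ± 0.25 in 30C (SD, n = 3). The difference of 30C over saline was 0.14 (SE 0.128, 95% interval -0.14 to 0.41, limma adjusted p = 1.000, n = 3 and 3). It was 0.28 without 30C replicate 1 and 0.046 without 30C replicate 3.

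Htr1d, a close relative of Htr1b and likewise found on terminals, was at 9.28, 9.34 and 8.92 in saline, 9.02, 9.22 and 9.52 in 1W, 9.19, 9.02 and 9.35 in 1C, 9.19, 9.27 and 9.23 in 30W, and 8.68, 9.22 and 9.26 in 30C. The lowest array, 30C replicate 1 at 8.68, stood apart from the next lowest, Sal replicate 3 at 8.92. The largest difference, 30C below 30W at -0.18 (95% interval -0.53 to 0.17, limma adjusted p = 0.999), was 0.0086 without that array.

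The Gq-coupled receptors showed the same overlap. Htr2a, the receptor that hallucinogens act on and that is abundant in cortex, was at 9.79, 10.27 and 10.28 in saline, 10.13, 10.06 and 10.26 in 1W, 10.02, 10.40 and 10.03 in 1C, 10.09, 10.23 and 10.39 in 30W, and 10.50, 10.29 and 9.96 in 30C. The lowest value was that of Sal replicate 1 and the highest that of 30C replicate 1, the arrays with the lowest and highest cortical scores. The difference of 30C over saline was 0.14 (95% interval -0.20 to 0.47, limma adjusted p = 1.000), and -0.024 without Sal replicate 1.

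Htr2c, which is edited at the RNA level and is a major serotonin receptor of striatal neurons as well as of the choroid plexus, was at 11.12, 11.36 and 11.25 in saline, 10.90, 11.33 and 11.32 in 1W, 11.23, 11.32 and 11.41 in 1C, 11.33, 11.11 and 11.27 in 30W, and 11.06, 11.28 and 11.34 in 30C. Its values spanned 1.43-fold, less than those of 6 of the other receptors. The difference of 1C over 1W was 0.14 (95% interval -0.10 to 0.38, limma adjusted p = 1.000) and was -0.0034 without 1W replicate 1, the lowest array for this gene.

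Of the Gs-coupled receptors, Htr4, which in the accumbens has been studied for its part in feeding, varied most. It was at 9.38, 9.02 and 8.54 in saline, 9.17, 8.89 and 9.52 in 1W, 9.37, 8.70 and 8.77 in 1C, 8.89, 9.30 and 9.37 in 30W, and 8.73, 9.31 and 9.36 in 30C. The saline group alone covered most of the range of the 15 arrays. The difference of 1C below 1W was -0.24 (95% interval -0.77 to 0.29, limma adjusted p = 1.000), and ran from -0.45 without 1C replicate 1 to -0.080 without 1W replicate 3. With the score of choroid plexus and ependymal markers as a covariate it was -0.49 (limma adjusted p = 0.999). It was -0.20 with the cortical projection neuron score and -0.26 with the medium spiny neuron score as covariate (limma adjusted p = 0.999 and 0.998).

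Htr6, a receptor largely confined to the brain and enriched in striatum, was at 8.64, 8.80 and 8.40 in saline, 8.35, 8.68 and 9.05 in 1W, 8.63, 8.46 and 8.78 in 1C, 8.59, 8.58 and 8.72 in 30W, and 8.09, 8.83 and 8.76 in 30C. Its group means lay close together, from 8.56 ± 0.41 in 30C to 8.70 ± 0.35 in 1W (SD, n = 3). The difference of 1W over saline was 0.08 (95% interval -0.33 to 0.50, limma adjusted p = 0.999). It was -0.095 without 1W replicate 3 and 0.25 without 1W replicate 1.

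Htr7, a receptor studied for circadian timing and mood, was at 6.91, 6.77 and 6.52 in saline, 6.95, 6.75 and 6.54 in 1W, 6.73, 6.75 and 6.58 in 1C, 6.75, 6.86 and 6.62 in 30W, and 6.61, 6.82 and 6.80 in 30C. These values spanned 1.34-fold. The mean, 6.73, lay above those of 97.8% of 1104 olfactory receptor genes, taken as a reference of low signal. That was the lowest such share among the 8 receptors. The difference of 1C below 1W was -0.06 (95% interval -0.30 to 0.18, limma adjusted p = 1.000), and it was 0.042 without 1W replicate 1.

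**Figure D1:**
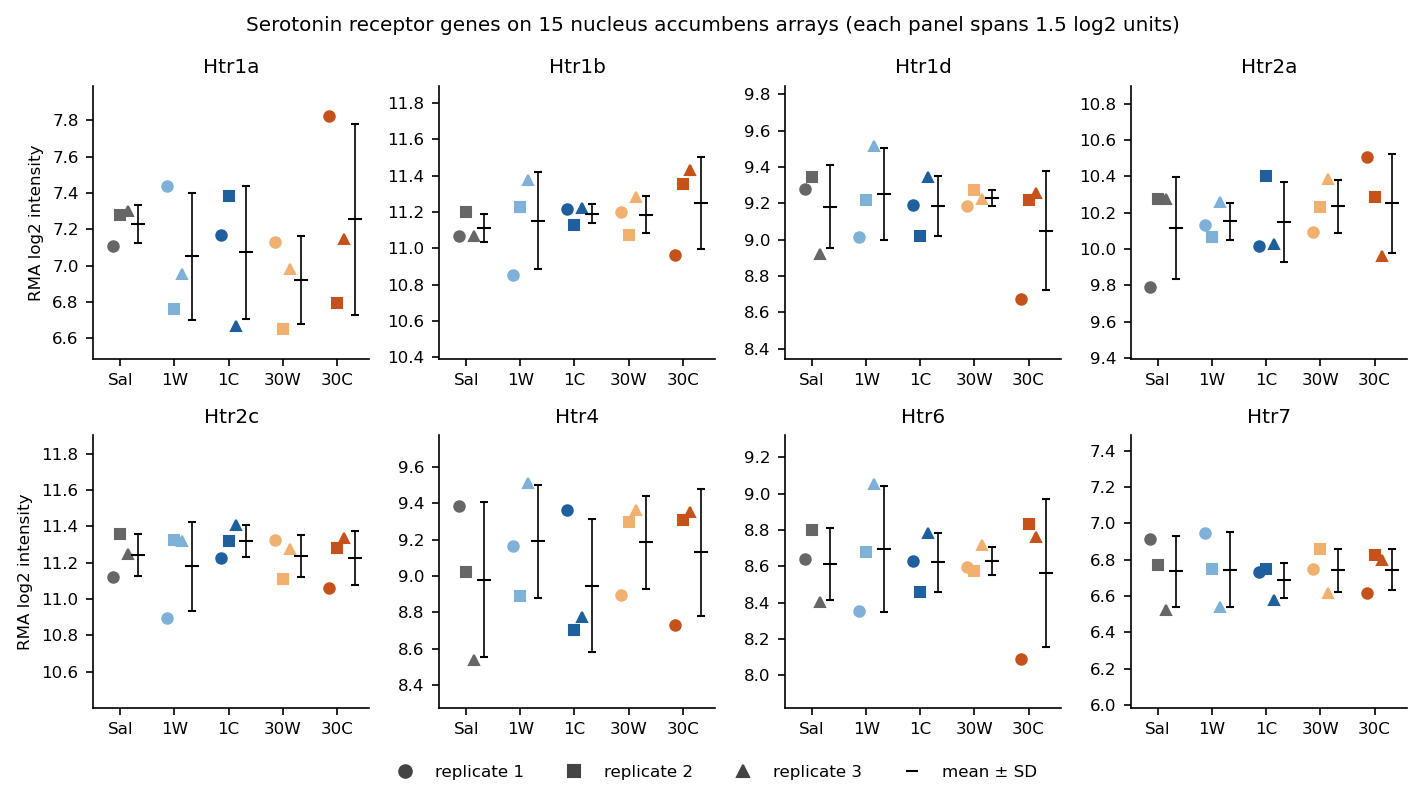
RMA log2 intensity of the 8 receptor genes (vertical axis, the same span in each panel) on each array, by group; circles, squares and triangles are replicates 1, 2 and 3, and the horizontal mark with its bar is the mean ± SD of 3 arrays. The groups overlap in every panel, and 30C replicate 1 is the lowest circle for Htr1d and Htr6 and the highest for Htr1a and Htr2a.

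Over the 8 comparisons of 2 groups, 0 of 8 receptors had an adjusted p under 0.05 in any, 0 of 8 had an unadjusted p under 0.05, and 0 of 8 had groups that did not overlap. The background was low as well. At an adjusted p under 0.05, 0% of genes passed in each of these 8 comparisons. At an unadjusted p under 0.05, the share of all genes tested was 4.87% for 1W against saline, 3.43% for 1C against saline, 7.60% for 30W against saline and 5.06% for 30C against saline. It was 4.02% for 1C against 1W, 3.93% for 30C against 30W, 10.1% for 30W against 1W and 5.48% for 30C against 1C. Groups did not overlap for 8.09%, 7.18%, 13.7%, 8.41%, 7.86%, 8.38%, 16.0% and 9.69% of genes in the same 8 comparisons, in the same order. With shares of this size, a count of 0 among 8 genes is close to the background.

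Effects averaged over groups gave the same count. For 30 days against 1 day of withdrawal averaged over the test, 0 of 8 receptors passed at an adjusted p under 0.05, where 1 gene in all did (0.00849%), and 0 of 8 at an unadjusted p under 0.05, against 13.0% of genes. The receptor with the smallest p there was Htr2a, at 0.09 (SE 0.110, 95% interval -0.14 to 0.33, limma adjusted p = 0.740). The cue test averaged over withdrawal, the interaction of test with withdrawal length, and the 4 cocaine groups against saline each gave 0 of 8 by either threshold. Of all genes, 4.85%, 3.03% and 4.33% had an unadjusted p under 0.05 in those comparisons, and 0% passed the adjustment. In the F test over the 5 groups, 0 of 8 receptors passed by either threshold, against 6.96% of genes unadjusted and 0% adjusted, and the p of the receptors ran from 0.655 for Htr1a to 0.980 for Htr7.

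A p above the threshold leaves room for changes within the interval of each difference, and those intervals included 0 in all 8 comparisons for each receptor. Over the 8 comparisons their bounds reached from -0.84 to 0.86 for Htr1a and from -0.77 to 0.74 for Htr4, the widest. They reached from -0.53 to 0.42 for Htr1d, -0.49 to 0.50 for Htr6, -0.34 to 0.47 for Htr2a and -0.24 to 0.41 for Htr1b. Those of Htr2c reached from -0.34 to 0.38, and those of Htr7, the narrowest, from -0.30 to 0.30. The half-width of a single interval ran from 0.24 for Htr2c and Htr7 to 0.53 for Htr1a and Htr4, in the fit with group as its only term and with no allowance for the number of genes tested. The fitted differences themselves were widest for Htr1a, from -0.31 (30W against saline) to 0.33, and narrowest for Htr1b, from 0.03 to 0.14, and Htr7, from -0.06 to 0.06.

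**Figure D2:**
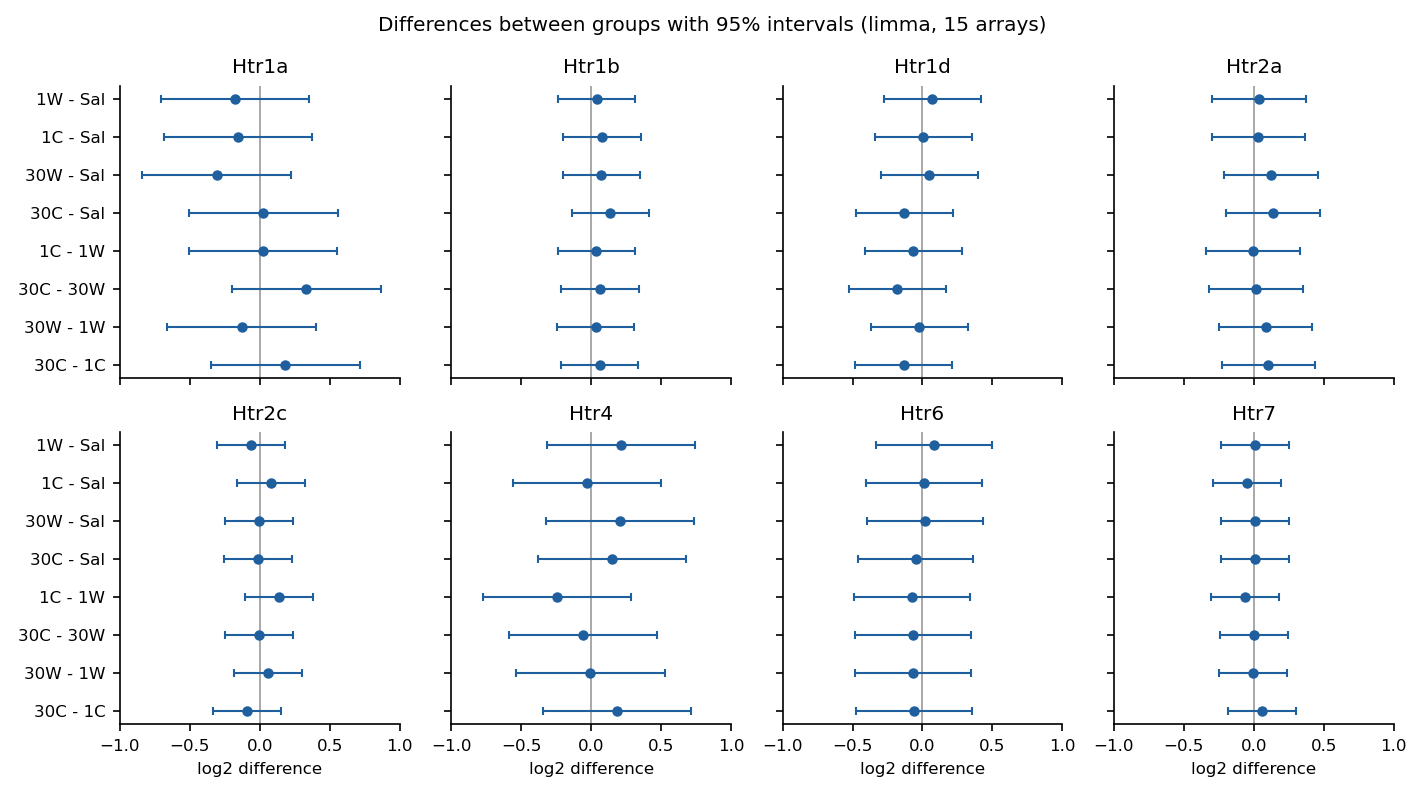
Difference in log2 level between 2 groups (horizontal axis, first group minus the other) with its 95% interval from limma, for each of 8 comparisons (rows) and 8 receptor genes (panels). Every interval crosses 0, and the intervals of Htr1a and Htr4 reach 0.53 to either side, against 0.24 for Htr2c and Htr7.

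The spread between arrays of a group was larger for these receptors than for most genes. The residual SD was 0.347 for Htr1a, 0.346 for Htr4, 0.269 for Htr6, 0.224 for Htr1d, 0.216 for Htr2a, 0.176 for Htr1b and 0.153 for both Htr2c and Htr7, while the median of all genes tested was 0.0866. All 8 lay between the 88.3rd and 98.7th percentile of genes in this respect. The groups accounted for between 3.2% (Htr7) and 15.9% (Htr1a) of a receptor's variance, against a median of 27.8% over all genes tested.

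The arrays at the ends of the range recurred from receptor to receptor. 30C replicate 1 was the lowest of the 15 for Htr1d and Htr6, the second lowest for Htr1b and Htr2c, and the highest for Htr1a and Htr2a. 1W replicate 1 was the lowest for Htr1b and Htr2c, and 1W replicate 3 the highest for Htr1d, Htr4 and Htr6. These arrays also stood at the ends of the medium spiny neuron score, at -0.39 for 30C replicate 1, -0.22 for 1W replicate 1 and 0.23 for 1W replicate 3.

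Receptor levels were set against 3 marker scores over the 15 arrays, 24 relations in all, with two-sided permutation p-values adjusted by Benjamini-Hochberg over the 24. Of these, 8 passed an adjusted p of 0.05 for Pearson's r, and none of the 8 involved choroid plexus and ependymal markers. The share of all genes related to these scores was not computed, so the count is not shown to be particular to the receptors. Htr6 followed the medium spiny neuron score most closely, with r = 0.95 and rho = 0.90 (permutation p = 2e-05 and 5e-05, adjusted p = 0.00036 and 0.00072, n = 15 arrays). Htr1d followed it with r = 0.91 and rho = 0.73 (permutation p = 3e-05 and 0.0029, adjusted p = 0.00036 and 0.014), and Htr1b with r = 0.85 and rho = 0.89 (permutation p = 0.00011 and 6e-05, adjusted p = 0.00088 and 0.00072). Htr2c did so with r = 0.77 and rho = 0.81 (permutation p = 0.0015 and 0.00035, adjusted p = 0.0060 and 0.0021). With 1W replicate 1 and 30C replicate 1 left out, the arrays farthest from the median score, r was 0.90 for Htr6, 0.81 for Htr1d, 0.79 for Htr1b and 0.59 for Htr2c. With group means subtracted it was 0.97, 0.92, 0.96 and 0.83, so the relation lay within groups.

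Htr1a ran the other way, with r = -0.73 against the medium spiny neuron score (permutation p = 0.0020, adjusted p = 0.0069) and rho = -0.57 (permutation p = 0.029, adjusted p = 0.071). Without the same 2 arrays r was -0.38, so this relation rested largely on them. Htr2a followed the cortical projection neuron score instead, with r = 0.78 and rho = 0.68 (permutation p = 0.00057 and 0.0071, adjusted p = 0.0027 and 0.028). Without Sal replicate 1 and 30C replicate 1 its r was 0.52. Htr4 fell as the cortical score rose, with r = -0.76 and rho = -0.84 (permutation p = 0.00055 and 0.00022, adjusted p = 0.0027 and 0.0018), and r was -0.79 without those 2 arrays. Htr1d also ran against the cortical score, at r = -0.66 and rho = -0.66 (permutation p = 0.0082 and 0.0085, adjusted p = 0.025 and 0.029), with r = -0.60 without them. The cortical and medium spiny neuron scores were themselves negatively related, at r = -0.53 and rho = -0.50 (permutation p = 0.047 and 0.063, n = 15), r being -0.56 without Sal replicate 1 and 30C replicate 1, so the relations to them are not separate.

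Htr2c, despite its place in the choroid plexus, showed r = 0.20 and rho = 0.17 with the choroid plexus and ependymal score (permutation p = 0.48 and 0.55, adjusted p = 0.57 and 0.60), and r = 0.28 without 30W replicate 3 and 1C replicate 1. On the array with the highest Ttr, 30W replicate 3, Htr2c was at 11.27, near its mean of 11.24. Htr7 passed with none of the 3 scores. Together the cortical and medium spiny neuron scores went with 94.0% of the variance within groups of Htr6, 92.6% of Htr1b, 89.6% of Htr1d and 89.2% of Htr2c. The share was 67.3% for Htr4, 64.1% for Htr2a, 54.8% for Htr1a and 29.7% for Htr7. The medium spiny neuron score alone gave 93.6% for Htr6, 91.9% for Htr1b, 84.9% for Htr1d and 68.9% for Htr2c. The cortical score alone gave 67.2% for Htr4 and 62.8% for Htr2a, but 0.6% for Htr2c. Any 2 scores take up some share of the variance, so a low share such as that of Htr7 says little.

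**Figure D3:**
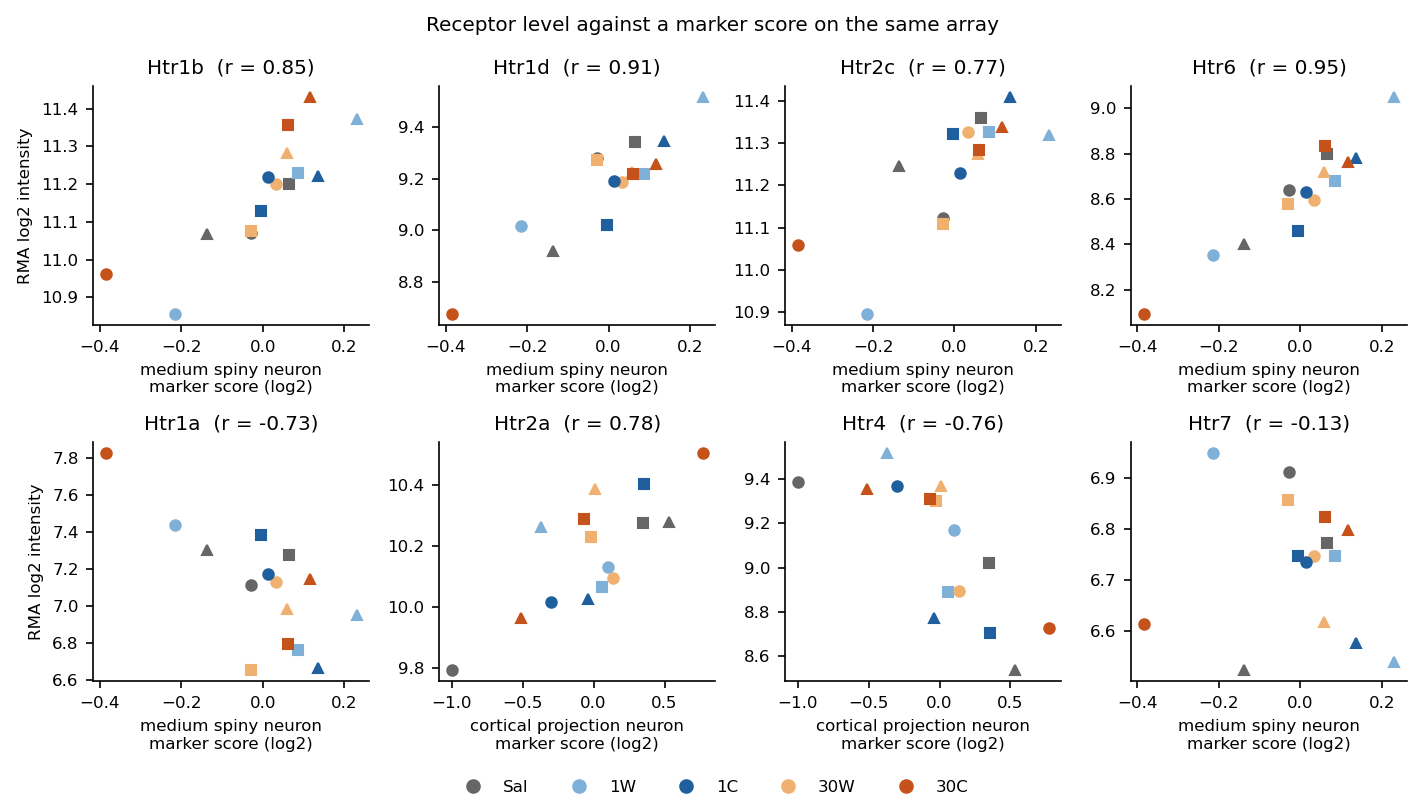
Level of each receptor gene (vertical axis, RMA log2 intensity, scaled per panel) against a marker score on the same array (horizontal axis, mean log2 deviation of the list's genes), coloured by group, with replicates 1, 2 and 3 as circles, squares and triangles. Htr1b, Htr1d, Htr2c and Htr6 rise with the medium spiny neuron score, Htr2a rises and Htr4 falls with the cortical score, and Htr7 shows r = -0.13.

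With the medium spiny neuron score as a covariate in the fit, a setting chosen after the data were seen, 0 of 8 receptors passed at an adjusted p under 0.05 in any comparison. Htr1b was then the receptor with an unadjusted p under 0.05, in the comparisons that follow. The difference of 30C over saline was 0.17 (SE 0.049, 95% interval 0.066 to 0.278, limma adjusted p = 0.538), where 6.10% of genes passed unadjusted. It was 0.15 over 30W (adjusted p = 0.900, background 5.20%) and 0.18 over 1C (adjusted p = 0.574, background 6.63%). For 30 days against 1 day it was 0.11 (adjusted p = 0.221, background 15.4%), and for the cue test 0.09 (adjusted p = 0.744, background 6.58%). The F test for Htr1b gave an adjusted p of 0.451, against a background of 9.01%. The 30C group enters each of these comparisons, so they are not separate results. What the score stands for in these fits was not tested. With the cortical projection neuron score as covariate instead, no receptor had an unadjusted p under 0.05 in any comparison. Htr1b in 30C over saline was then 0.15 (95% interval -0.10 to 0.41, limma adjusted p = 0.962), where 5.96% of genes passed unadjusted.

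Receptor genes were then set against each other. Of the 28 pairs, 6 were positively and 2 negatively related at an adjusted p under 0.05 over the 28 (Pearson's r, permutation test, n = 15 arrays). Pairs of other genes were not counted in this way, so these numbers are not shown to be particular to the receptors. Htr1d and Htr6 gave r = 0.94 and rho = 0.81 (permutation p = 1e-05, the smallest that the resamples can give, and 0.00052, adjusted p = 0.00028 and 0.0073). Without 1W replicate 3 and 30C replicate 1 r was 0.85. Both genes were lowest in 30C replicate 1 and highest in 1W replicate 3. Htr1b was related to Htr6 with r = 0.83 and rho = 0.83 (permutation p = 0.00015 and 0.00022, adjusted p = 0.0021 and 0.0062), and r was 0.76 without 1W replicate 1 and 30C replicate 1. Htr1b was related to Htr2c with r = 0.80 and rho = 0.62 (permutation p = 0.00030 and 0.016, adjusted p = 0.0028 and 0.090), r being 0.54 without those arrays.

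The other positive pairs were weaker, with r = 0.65 for Htr1b with Htr1d, 0.65 for Htr2c with Htr6 and 0.61 for Htr1d with Htr4, and r was 0.48, 0.37 and 0.47 without the 2 arrays farthest from the median. The negative pairs were Htr1a with Htr1d (r = -0.75) and Htr1a with Htr6 (r = -0.71), at -0.58 and -0.66 without 30W replicate 2 and 30C replicate 1. None of these 5 pairs had an adjusted p under 0.05 for rho. Htr2a and Htr7 entered no pair that passed. All the pairs share the 15 arrays and with them the marker scores described above.

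**Figure D4:**
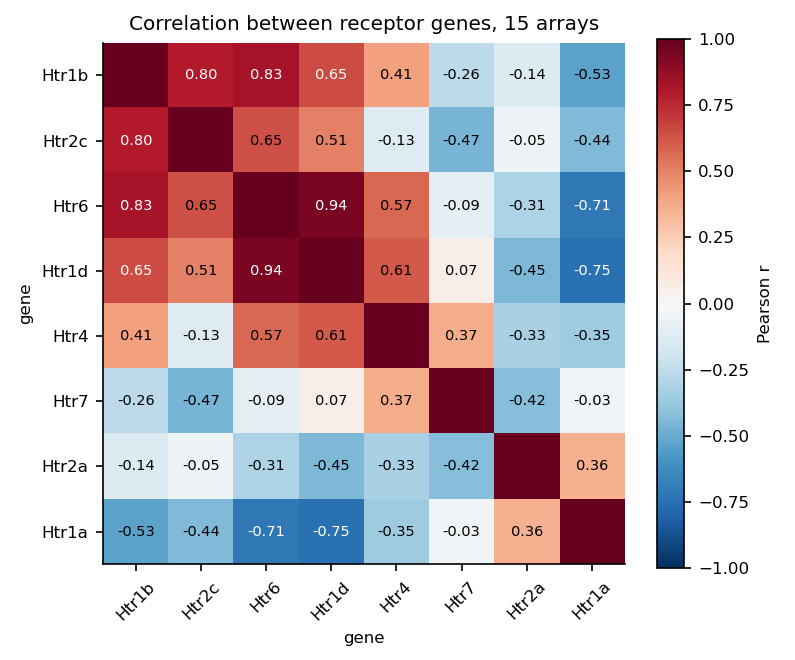
Pearson's r between the levels of each pair of receptor genes over 15 arrays, from -1 (blue) to 1 (red). Htr1b, Htr2c, Htr6 and Htr1d form the red block, with r from 0.51 to 0.94, and Htr1a is negative to all 4. Htr1d with Htr2c (r = 0.51) did not pass the adjusted threshold, nor did Htr1a with Htr1b or Htr2c. Htr4, outside the block, reached r = 0.61 with Htr1d.

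The genes with the pattern most like each receptor, by Pearson's r over the 15 arrays among all genes that passed the filter, were named as a description. For Htr6 they were Cldn12 (r = 0.965), Chst15 (0.963) and Pard3 (0.962), and for Htr1d Nexn (0.963), Rragd (0.951) and Lingo3 (0.943). For Htr1b they were Plppr5 (0.942), Ccdc110 (0.927) and Slc2a13 (0.923), and for Htr2c Necab1 (0.945), Plppr4 (0.940) and Zdhhc23 (0.928). Htr2a was most like Rock2 (0.903), Slc9a4 (0.879) and Grin2a (0.877), of which Grin2a encodes an NMDA receptor subunit. Htr4 was most like Ust (0.904), Mc4r (0.871), the melanocortin receptor known for its part in feeding, and Ptgr3 (0.862). Htr1a was most like Pla2g15 (0.889), Mfsd12 (0.865) and Sphkap (0.858).

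Htr7 had the loosest neighbours, Phyh (0.808), Agt (0.803) and Sox10 (0.797). Agt is known as an astrocyte gene and Sox10 as a gene of oligodendrocytes. Htr7 alone was also set against 2 glial scores, outside the plan and the relations above. These scores match the cell types of neighbours picked by r on the same 15 arrays. A positive r was therefore likely beforehand, and the p-values below, adjusted over these 2 relations only, are not separate support. For the astrocyte score r was 0.54 and rho 0.42 (permutation p = 0.038 and 0.12, adjusted p = 0.046 and 0.12). For the oligodendrocyte score r was 0.52 and rho 0.42 (permutation p = 0.046 and 0.12, adjusted p = 0.046 and 0.12, n = 15 arrays). Without the 2 arrays farthest from the median score r was 0.49 and 0.39. With group means subtracted it was 0.73 for both.

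Of 6 further receptor genes, 4 passed the filter and 0 of 4 had an unadjusted p under 0.05 in the F test, where 6.96% of all genes did. Htr1f lay between 8.16 and 8.65, Htr3a, a subunit of the ion channel receptor, between 7.36 and 7.78, Htr5a between 7.80 and 8.09, and Htr5b between 6.40 and 6.92. Htr2b, between 4.71 and 5.12, and Htr3b, between 5.45 and 5.90, did not pass the filter.

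Of 13 genes for making, moving and breaking down serotonin, 11 were tested. Over the 8 comparisons of 2 groups, which are 88 tests, an unadjusted p under 0.05 was met 2 times upward and 2 times downward, and 0 passed the adjustment, where 5.56% of tests over all genes were under 0.05. The list's median difference ran from -0.05 to 0.02, and that of all genes from -0.02 to 0.01. Tph2, the enzyme that makes serotonin in raphe neurons, and Slc6a4, the serotonin transporter, ranged from 5.63 to 5.97 and from 5.89 to 6.30. Both lay at low signal, as the 30th percentile of the arrays, used in the filter, had a median of 5.81. All their values were under 6.37, the upper bound of the low-signal reference from olfactory receptor genes, which some of those genes exceed. Within this low range, Slc6a4 in 30C was 0.20 above saline (SE 0.07, limma adjusted p = 0.892). Whether that difference reflects transporter transcript was not tested. Maoa, which breaks serotonin down, was the 1 gene of the list under 0.05 in the F test (limma adjusted p = 0.659). The fitted difference of 30W from 1W was -0.20 (SE 0.07, limma adjusted p = 0.375), and that of 30C from 1C was -0.17 (limma adjusted p = 0.833). For 30 days against 1 day averaged over the test it was -0.19 (SE 0.049, limma adjusted p = 0.236), where 13.0% of all genes had an unadjusted p under 0.05.

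Genes downstream of the receptors were counted in the same way, against 5.56% of tests over all genes. On the Gi/o side, which holds the inhibitory G proteins, the potassium channels they open and the RGS proteins that end their signal, an unadjusted p under 0.05 came up 2 times upward and 1 time downward in 104 tests over the 8 comparisons, all of them Rgs14. Its differences were 0.14 in 30W over saline, 0.17 in 30W over 1W and -0.13 in 30C against 30W (limma adjusted p = 0.562, 0.375 and 0.999). On the Gq side the counts were 1 and 0 of 104 tests over 13 genes, the 1 being Plcb2, a phospholipase, at 0.13 in 1W over saline (limma adjusted p = 0.999). On the Gs side, with the adenylyl cyclases and the subunits of protein kinase A, they were 0 and 0 of 144 tests over 18 genes, some of which are medium spiny neuron markers as well, such as Pde10a and Ppp1r1b. Among 14 receptor partners and editing enzymes they were 0 and 0 of 112 tests, while for 30 days against 1 day averaged over the test 2 of 14 had a lower value at an unadjusted p under 0.05, against 13.0% of genes in either direction. These were Adarb2, of the RNA editing family, at -0.16 and Cav1, a caveolin, at -0.17 (limma adjusted p = 0.377 and 0.379). These genes were named after their values were seen. None of these lists had a gene that passed the adjustment. S100a10, an adaptor known to bind Htr1b and Htr4, ranged from 7.35 to 8.43, with its highest value in 30C replicate 1, and its largest difference by p was 0.24 in 30C over 30W (SE 0.20, limma adjusted p = 0.999).

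Marker lists of other cell types were counted in the F test, where 6.96% of all genes had an unadjusted p under 0.05. Of these lists, 0 of 22 medium spiny neuron markers, 1 of 16 cortical projection neuron markers (Lhx2), 1 of 11 septal and hypothalamic markers (Otp) and 0 of 12 choroid plexus and ependymal markers had an unadjusted p under 0.05, and none passed the adjustment. The counts were 6 of 13 for oligodendrocyte markers, with Fa2h, Cnp, Gjb1 and Mag at the smallest p, 5 of 11 for microglia markers, with Cd180, Cx3cr1, Gpr34 and Csf1r, and 2 of 11 for endothelial markers (Esam and Tie1). They were 0 of 5, 0 of 10 and 0 of 9 for cholinergic interneurons, GABAergic interneurons and astrocytes. Receptor levels were set against the scores of some of these lists, as described above, and against none of the others. Whether any of these cells account for the receptor values was not tested.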

How the data were processed

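RNA from the nucleus accumbens was measured on 15 Affymetrix arrays, 3 in each of 5 groups taken from the sample labels. The authors deposited 1 table of log2 values. Per the submitters' processing notes these came from RMA, which quantile-normalizes the arrays. No version or filter of it is given in the sources used here. A kit for 3' arrays is named in the labels, whereas the probe set numbers belong to a whole-transcript array. The table held 28826 probe sets with 0 missing values. Arrays correlated at 0.9929 to 0.9967, and the number of arrays limits the precision. The labels give no scan date or batch. The platform annotation gave 1 symbol to 15209 probe sets, several to 306, which were not used, and none to 13311, which are unnamed here. RefSeq's table (GRCr8) matched 15178 of the named ones.

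Each gene was represented by its probe set with the highest mean, and kept if it exceeded its array's 30th percentile on 3 or more arrays. Then limma 3.58.1 in R 4.3.3 (lmFit, eBayes) was fitted on all 15 arrays with group as its only term, with 10 residual and 3.44 prior degrees of freedom, two-sided p-values and Benjamini-Hochberg adjustment over 11778 genes. The procedure was tested on simulated data. Correlations used 100000 permutations in SciPy 1.17.1. Alternatives covered normalization, the filter, the choice of probe set, weights per array, the variance model, the arrays fitted, a replicate block, marker scores as covariates, the threshold, and each array left out.

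The receptors and gene lists were chosen with earlier results of these data known. Named are all receptors, the 3 genes most like each, list genes under 0.05 in the F test (up to 4 a list) and a few fixed genes. Full statistics had been planned for receptor comparisons with an unadjusted p under 0.05. As there were 0, they are given for each receptor's comparison of 2 groups with the smallest p, a choice made after the data were seen, as was the motif shown in capitals. The 2 glial scores set against Htr7 were also outside the plan.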

Additional observations from a re-analysis of the deposited data

How the results depend on the processing

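Over 28 settings, 363 counts of receptors past the adjusted threshold were recomputed, and all were 0, including those at an adjusted p of 0.10. The smallest adjusted p of a receptor in any was 0.221 (Htr1b, 30 days against 1 day, with the medium spiny neuron score as covariate, added after the data were seen). At an unadjusted p under 0.05, where the count had been 0, 1 receptor appeared in a few other settings. These were Htr4 in 1C against 1W with the choroid plexus score as covariate, Htr1a in 30W against saline with only the arrays compared, Htr1b in 30C against saline without 30C replicate 1, and Htr1a in 30C against 30W without 30C replicate 2 (adjusted p = 0.999, 0.608, 0.632 and 0.933). Some unadjusted differences changed sign. Htr2a in 30C against saline was -0.0098 with array weights, and Htr6 in 1W against saline was -0.020 with the medium spiny neuron score as covariate. Leaving out each array in turn gave ranges of 0.048 to 0.56 for Htr1a (30C against 30W), 0.046 to 0.28 for Htr1b and -0.024 to 0.28 for Htr2a (both 30C against saline), and -0.28 to 0.0086 for Htr1d (30C against 30W). For 1C against 1W they were -0.0034 to 0.21 for Htr2c, -0.45 to -0.080 for Htr4 and -0.16 to 0.042 for Htr7, and for Htr6 (1W against saline) -0.095 to 0.25. Over the other alternatives the differences ran from 0.16 to 0.34 for Htr1a, 0.096 to 0.18 for Htr1b, -0.19 to -0.070 for Htr1d, 0.070 to 0.16 for Htr2c, -0.49 to -0.12 for Htr4 and -0.090 to -0.051 for Htr7. The cause was not tested beyond which array was left out. With the replicate block the count of receptors was 0 and the Htr1a difference 0.33. Residuals of same-numbered arrays correlated at -0.625 to 0.507, over 0.1 in 10 of 30 pairs, against 21 of 60 pairs with different numbers. This gave no sign that the numbers pair the arrays, but it cannot settle whether they do. Under the 50th percentile filter Htr7 was not among the genes tested. The number of arrays limits the precision.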
